A study of Mus musculus with 6 samples.

Results

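The genes described here are the matrix metalloproteinases Mmp2, Mmp3, Mmp9, Mmp14 and Mmp15 and the tissue inhibitors of metalloproteinases Timp1 to Timp4, measured on Affymetrix mouse arrays in heart RNA. A probe set was taken where the platform annotation gave it exactly 1 gene symbol and that symbol was one of these 9. The rule found 21 of the 45037 probe sets that are not controls, and they cover 8 of the 9 genes. No probe set was annotated to Mmp15 alone, so Mmp15 is not analysed here. The 6 hearts, 1 array each, came from male mice aged 5 to 6 months that had fasted for 6 hours. The wild-type group holds 3 hearts and the Cav1 knockout group, without the caveola coat protein caveolin-1, holds 3. The labels name neither the strain nor the deleted part of Cav1, nor whether the loss was limited to a cell type. Knockout replicates are numbered in the order of deposit. Each sample is called a heart here, and each sample title ends in its own number. Whether each sample is a different animal is not said by the labels, so the spread behind each p-value may be technical.

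Matrix metalloproteinases are zinc endopeptidases that cut collagens, gelatin, proteoglycans and other matrix proteins, and most are made as inactive precursors whose propeptide must be removed. TIMPs are small secreted proteins that bind the active site and block it, so the balance of both families sets how fast matrix is turned over after it has been made. In the heart, fibroblasts, endothelial cells, muscle cells and white blood cells all contribute members of these families, and matrix turnover is known to change during injury, pressure overload and fibrosis. The RNA level measured here says nothing of how much enzyme is active.

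The promoters of the 4 genes with the largest differences between the groups are shown first, so that their sequence can be read beside their values. RefSeq (GRCm38.p6) gave a window of 300 bases, 250 before and 50 after the start of the gene, for 7 of the 9 genes. Mmp2 and Mmp9 had no entry. The 100 bases just before the start are printed 5′ to 3′ on the strand of the gene, with matches to the AP-1 motif TGANTCA or to the GC box GGGCGG, searched on both strands, in capitals. They lie at chr9:7445722-7445821, plus strand (Mmp3), chr14:54431498-54431597, plus strand (Mmp14), chrX:20870066-20870165, plus strand (Timp1) and chr6:115252206-115252305, minus strand (Timp4).
Mmp3: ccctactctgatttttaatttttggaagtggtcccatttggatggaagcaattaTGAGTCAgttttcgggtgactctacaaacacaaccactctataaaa
Mmp14: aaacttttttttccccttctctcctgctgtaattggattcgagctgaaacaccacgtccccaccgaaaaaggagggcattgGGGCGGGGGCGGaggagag
Timp1: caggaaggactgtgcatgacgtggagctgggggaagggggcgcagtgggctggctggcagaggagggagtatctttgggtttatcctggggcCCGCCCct
Timp4: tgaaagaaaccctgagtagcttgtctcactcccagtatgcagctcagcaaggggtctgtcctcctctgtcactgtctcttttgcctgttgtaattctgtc

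AP-1, the Fos and Jun dimer, is a known inducer of stromelysin genes, and Mmp3 was the 1 gene of the 7 with its motif in the window, at bases -46 to -40 from the start. Over all 32851 windows, 7.81% held that motif. The GC box, a site of Sp1-type factors, stood in 5 of the 7 windows, those of Mmp14, Mmp15, Timp1, Timp2 and Timp3, and in 35.7% of all windows. In Mmp14 it occurred as a pair, at bases -19 to -14 and -13 to -8, and in Timp1 it lay on the opposite strand at -8 to -3. The Timp4 window held neither motif. Of the stretches printed, that of Mmp3 had a GC content of 38%, that of Timp4 49%, that of Mmp14 54% and that of Timp1 65%. These matches describe letters and were not tested for any part in the values that follow.

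The summed intensity of the deposited table, without its control probe sets, ran from 11601097 to 12253754 per array. Cav1 itself stood at a mean normalised intensity of 3968 in wild-type hearts and 107 in knockout hearts. All 10 cardiomyocyte markers lay among the probe sets tested, with a summed normalised intensity of 153382 to 155372 in wild-type hearts and 150927 to 153990 in knockout hearts. These genes are among the brightest, where quantile normalisation gives every array the same values, so the scaling itself can hold these sums alike. Tnni3, for example, read 14115.5 in all 3 wild-type hearts. Levels below are quantile-normalised intensities on a linear scale. Fold changes are knockout minus wild type after log2(intensity + 16), so those of dim genes are understated, and come from limma fitted over all 22519 probe sets in the upper 50% by mean. A gene is said to have risen or fallen where its Benjamini-Hochberg adjusted p was under 0.05. A probe set outside the upper 50% is called near background and was not tested.

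None of the metalloproteinase or TIMP probe sets passed the test. Of the 21, 19 were tested and 2 lay near background, 1 of Mmp9 and 1 of Timp2. Of the 19, 0 were higher and 0 lower at an adjusted p of 0.05 (limma), while 2.36% of all probe sets tested were called higher and 0.813% lower. At an unadjusted p under 0.05 there were 6 of the 19, beside 20.0% of all probe sets tested. In 4 of the 19 every knockout heart lay above every wild-type heart, against 12.3% of all probe sets, and in 0 every knockout heart lay below, against 14.0%. Log2 fold changes were positive in 14 of the 19, and in 46.9% of all probe sets. Their median was 0.078, beside -0.0096 over all probe sets. The genes fell into those whose largest difference came close to the threshold (Mmp14, Timp1 and Timp4), Mmp3 with a difference of like size but hearts that overlapped, and Mmp2, Mmp9, Timp2 and Timp3 with small differences.

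**Figure D1:**
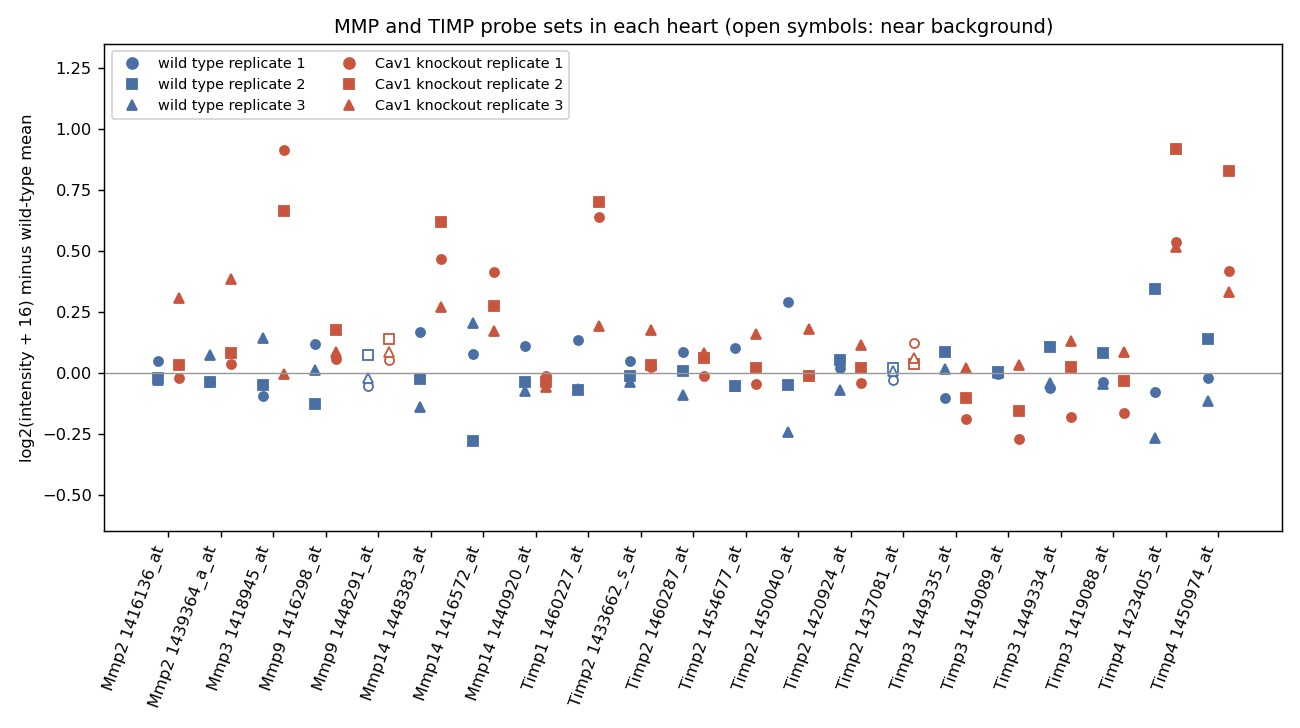
Each heart's log2(intensity + 16) at each of the 21 probe sets, on the y axis, minus the mean of the 3 wild-type hearts; blue symbols are wild-type and red symbols knockout hearts, circles, squares and triangles replicates 1, 2 and 3, and open symbols the 2 probe sets near background. Knockout hearts stand above all wild-type hearts at 1 probe set each of Mmp14 and Timp1 and at both of Timp4, while at Mmp3 knockout replicate 3 lies among the wild-type hearts.

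Among the gelatinases, which degrade denatured collagen and basement membrane collagen, Mmp2 (gelatinase A) was much alike in 5 hearts and high in 1. Its brighter probe set, 1416136_at, read 671, 639 and 635 in the wild-type hearts and 638, 664 and 807 in the knockout hearts. Knockout replicate 3 was the highest of all, and the other knockout hearts lay inside the wild-type range. The means were 648 ± 19.5 and 703 ± 90.9 (SD, n = 3 each), a log2 fold change of 0.11 (SE 0.082, limma adjusted p = 0.482) with a 95% interval of -0.078 to 0.29. The other probe set, 1439364_a_at, was likewise highest in knockout replicate 3, with 791 there and 587 to 639 in the rest, and a log2 fold change of 0.17 (limma adjusted p = 0.319).

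Mmp9 (gelatinase B), an enzyme that neutrophils store and macrophages make, read low, with its tested probe set at percentile 52.0 of all probe sets by mean. Its tested probe set read 52.0, 41.3 and 47.1 in wild-type hearts and 49.1, 54.8 and 50.4 in knockout hearts, so that the groups overlapped. The log2 fold change was 0.11 (SE 0.082, limma adjusted p = 0.485). The other Mmp9 probe set read 19.9 to 23.2 in wild-type hearts and 22.6 to 24.96 in knockout hearts, near background and untested. As a guide to what these arrays read without transcript, 28 probe sets of 22 genes that belong to other tissues, such as retina, pancreas, testis and hypothalamus genes, had a median intensity of 17.1 and a 90th percentile of 78.9. Both Mmp9 probe sets lay under that 90th percentile, so by this guide Mmp9 could not be told from background.

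Mmp3 (stromelysin-1), which cuts proteoglycans, laminin and fibronectin and can activate other metalloproteinases, was high in 2 of the 3 knockout hearts. Its probe set read 67.4, 70.04 and 82.5 in the wild-type hearts and 152, 125 and 72.7 in the knockout hearts. Knockout replicates 1 and 2 lay above every wild-type heart, while knockout replicate 3 fell inside the wild-type range. The means were 73.3 ± 8.05 and 117 ± 40.2 (SD, n = 3 each), a log2 fold change of 0.52 (SE 0.20, limma adjusted p = 0.193) with an interval of 0.074 to 0.97. Without knockout replicate 3 the log2 fold change was 0.79 and passed (limma adjusted p = 0.0122). Without knockout replicate 1 it was 0.33 and did not pass (limma adjusted p = 0.474). Over all alternatives its adjusted p lay between these, so the call turns on which knockout hearts enter. The wild-type readings straddle the 90th percentile of the other-tissue genes.

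Mmp14, the membrane-type metalloproteinase that cuts fibrillar collagen at the cell surface and activates the Mmp2 precursor, was higher in every knockout heart at its brightest probe set and missed the threshold. That probe set, 1448383_at, read 159.6, 138 and 126 in wild-type hearts and 200.3, 224 and 173 in knockout hearts. The wild-type mean lies under the highest mean of the other-tissue genes, 159 for Oxt. The groups did not overlap, with the lowest knockout heart, replicate 3, above the highest wild-type heart, replicate 1. The means were 141 ± 17.2 and 199 ± 25.7 (SD, n = 3 each), 141% of the wild-type level, and the log2 fold change was 0.45 (SE 0.11, interval 0.21 to 0.69, limma adjusted p = 0.0577). It passed with the intensities as deposited (limma adjusted p = 0.037) and when arrays were centred on the median (0.0287), so this call depends on the scaling. It also passed with array weights (0.0187) and at 0.54 without either wild type replicate 1 (0.048) or knockout replicate 3 (0.0401). Over all alternatives its adjusted p ran from 0.0187 to 0.20 (limma).

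The other probe sets of Mmp14 did not all follow. Probe set 1416572_at, built on the same RefSeq transcript, read 95.3, 70.9 and 106 in wild-type hearts and 125, 112 and 103 in knockout hearts, with groups that overlapped and a log2 fold change of 0.29 (limma adjusted p = 0.237). Probe set 1440920_at, built on an expressed sequence tag, read 67.3 to 78.8 in wild-type hearts and 68.4 to 70.9 in knockout hearts, a log2 fold change of -0.035 (limma adjusted p = 0.806). Its readings lie under the 90th percentile of the other-tissue genes. All readings of 1416572_at lie under the highest mean of those genes, 159 for Oxt. Whether the 3 probe sets differ from each other was not tested.

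Timp1, the inhibitor that is known to be induced by cytokines and tissue injury, was higher in every knockout heart and missed the threshold as well. Its probe set read 98.0, 82.9 and 83.1 in wild-type hearts and 146, 153 and 102 in knockout hearts. The wild-type readings lie just above the 90th percentile of the other-tissue genes, 78.9. All its readings are under the highest mean of those genes, 159 for Oxt. Knockout replicates 1 and 2 stood far above the wild-type hearts, and knockout replicate 3 just above the highest of them. The means were 88.0 ± 8.66 and 134 ± 27.1 (SD, n = 3 each), 152% of the wild-type level, with a log2 fold change of 0.51 (SE 0.13, interval 0.22 to 0.80, limma adjusted p = 0.076). Without knockout replicate 3 it was 0.67 and passed (limma adjusted p = 0.0113), and with array weights it was 0.57 and passed (0.0371). With any other heart left out, the adjusted p lay between 0.101 and 0.261 (limma).

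Timp4, the inhibitor with the narrowest tissue range, abundant in heart and also made by fat cells, was higher in every knockout heart at both of its probe sets and missed the threshold. Probe set 1423405_at read 415, 562 and 362 in wild-type hearts and 643, 845 and 634 in knockout hearts. No hearts of the groups overlapped, although wild type replicate 2 came near the lower knockout hearts. The means were 446 ± 104 and 708 ± 119 (SD, n = 3 each), 159% of the wild-type level, with a log2 fold change of 0.66 (SE 0.16, interval 0.31 to 1.01, limma adjusted p = 0.0601). Probe set 1450974_at read 319, 359 and 298 in wild-type hearts and 438, 588 and 412 in knockout hearts. Again knockout replicate 2 was the highest and the groups did not overlap, and the log2 fold change was 0.53 (SE 0.12, interval 0.25 to 0.80, limma adjusted p = 0.059). Without wild type replicate 2 the first of these probe sets passed, at 0.83 (limma adjusted p = 0.0167), and without knockout replicate 3 the second did, at 0.62 (0.045). Both passed among the upper 25% of probe sets (limma adjusted p = 0.0408 and 0.0389) and with array weights (0.0283 and 0.0377), and over all alternatives their adjusted p ran from 0.0167 to 0.18 and from 0.0377 to 0.181. Timp4 lies on chromosome 6, which also carries Cav1, and any part of this in the Timp4 values was not tested.

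Since fat cells also make Timp4, adipocyte markers are given beside it. The summed intensity of the 7 markers with a probe set was 1277, 1589 and 2351 for the wild-type group against 964, 855 and 1183 for the knockout group. Of the 5 tested, 1 fell, the amino acid transporter gene Slc36a2, by 0.56 on the log2 scale (limma adjusted p = 0.0186), and the median was -0.56. Of all 11486 genes tested by their brightest probe set, 2.97% were called higher and 1.05% lower. Adipoq, the adiponectin gene, missed the threshold with a log2 fold change of -1.89 (limma adjusted p = 0.109), as did Pck1 with -1.58 (0.098). The part of fat cells in the Timp4 values was not tested.

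Timp2, which blocks Mmp2 yet also bridges its precursor to Mmp14 at the cell surface, was alike in both groups at all 5 tested probe sets. The brightest, 1433662_s_at, read 1406, 1343 and 1323 in wild-type hearts and 1378, 1390 and 1536 in knockout hearts. The groups overlapped, with knockout replicate 3 the highest. The means were 1357 ± 43.2 and 1434 ± 87.8 (SD, n = 3 each), a log2 fold change of 0.078 (SE 0.052, limma adjusted p = 0.422) with an interval of -0.04 to 0.20. The other 4 had log2 fold changes of 0.030 to 0.054 and limma adjusted p of 0.665 to 0.824. The widest of the 5 intervals, that of 1450040_at, ran from -0.22 to 0.33. Since 3 of the probe sets derive from 1 source sequence and 2 from another, they are not independent readings. The sixth, 1437081_at, read 10.98 to 11.9 in wild-type hearts and 12.2 to 14.0 in knockout hearts, near background and untested.

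Timp3, the inhibitor that binds to the matrix and also blocks ADAM sheddases, showed log2 fold changes just under 0 at all 4 probe sets. All 4 were built on 1 expressed sequence tag. The brightest, 1449335_at, read 1442, 1645 and 1565 in wild-type hearts and 1357, 1439.8 and 1569.6 in knockout hearts, and the groups overlapped. The means were 1551 ± 102 and 1456 ± 107 (SD, n = 3 each), a log2 fold change of -0.091 (SE 0.065, interval -0.24 to 0.056, limma adjusted p = 0.45). The most shifted, 1419089_at, read 1029, 1036 and 1032 in wild-type hearts and 853, 924 and 1057 in knockout hearts. Its wild-type hearts were nearly equal and the knockout hearts spread around them, with a log2 fold change of -0.13 (SE 0.071, interval -0.29 to 0.029, limma adjusted p = 0.333). The remaining probe sets stood at -0.010 and -0.038, and both turned above 0, to between 0.030 and 0.080, with the intensities as deposited or centred on the median.

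**Figure D2:**
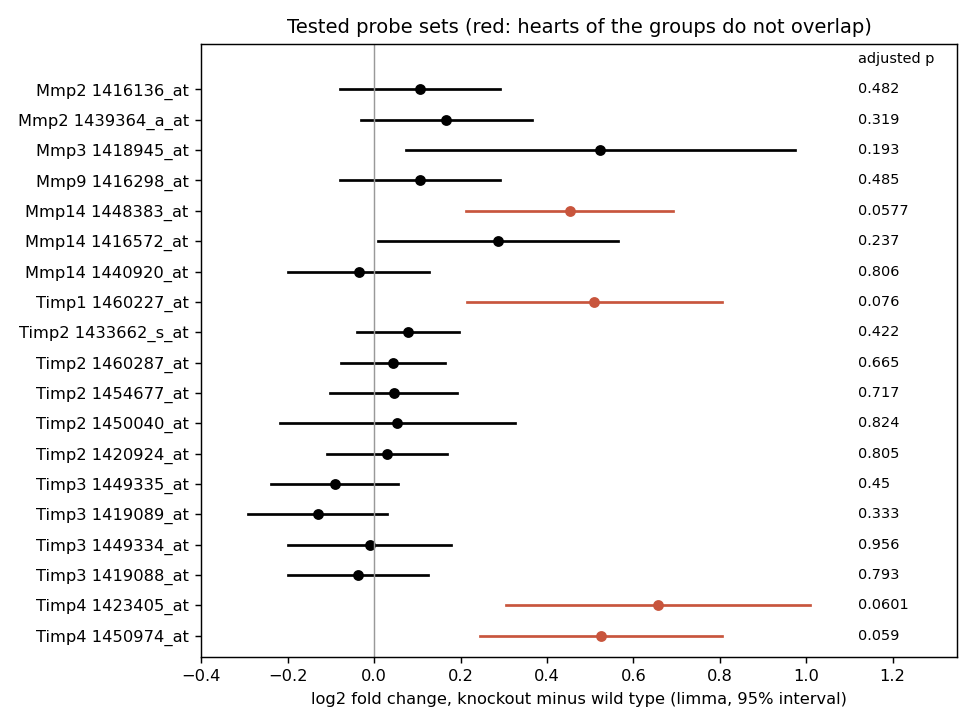
Log2 fold change (x axis, knockout minus wild type) of the 19 tested probe sets with the 95% interval of the limma fit as a bar and the adjusted p at the right; red marks probe sets at which the hearts of the groups do not overlap. The 4 red ones, of Mmp14, Timp1 and Timp4, have adjusted p of 0.0577 to 0.076, and the intervals of Timp2, Timp3, Mmp2 and Mmp9 include 0.

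Knockout replicate 3 divided the family. It was the highest of the 3 knockout hearts at all tested probe sets of Mmp2, Timp2 and Timp3, 11 of the 19, and the lowest at all tested probe sets of Mmp3, Mmp14, Timp1 and Timp4, 7 of the 19. Over all probe sets tested it was the highest knockout heart at 34.5% and the lowest at 33.3%. Probe sets of 1 gene share their transcript, so these counts rest on 8 genes, and the pattern was seen in the data. Knockout replicate 1 was the highest at 3 and the lowest at 11 of the 19.

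The summed markers of neutrophils and fibroblasts also had knockout replicate 3 at an extreme of its group, though not every marker did. Other lists did so too. Among knockout hearts it was lowest for endothelial markers (6696, 5995 and 5728) and highest for adipocyte markers (964, 855 and 1183). It was also highest for smooth muscle and pericyte markers (15065, 14925 and 15195), and between the others for macrophage, mesothelial and cardiomyocyte markers. Of the 9 neutrophil markers with a probe set, 3 were tested and 0 passed, also at an unadjusted p of 0.05 (limma), and 6 were near background, including those for granule proteins (Camp, Elane, Ltf, Mpo and Ngp). The summed intensity of the list was 396, 418 and 631 in wild-type hearts and 791, 1167 and 381 in knockout hearts, and S100a8 and S100a9 carry most of it in knockout replicates 1 and 2. The 5 granule genes, all near background, were highest among knockout hearts in replicate 3, as Ngp with 29.8, 29.7 and 36.8. In wild-type hearts Ngp read 42.8, 36.3 and 90.6. All 5 had negative log2 fold changes, from -0.21 (Camp) to -0.52 (Ngp), untested and opposite in sign to S100a8 and S100a9. S100a8, which forms calprotectin with S100a9 in neutrophils and monocytes, read 269, 491 and 85.3 in the knockout hearts and 77.6 to 148 in the wild-type hearts (log2 fold change 0.93, limma adjusted p = 0.313), and S100a9 read 310, 458 and 79.8 against 80.1 to 135 (1.09, limma adjusted p = 0.254). The summed fibroblast markers were 21583, 20422 and 20799 in wild-type hearts and 21192, 20527 and 23696 in knockout hearts, highest in knockout replicate 3. Of those 10 markers 1 rose, the microfibril gene Mfap5, by 0.38 (limma adjusted p = 0.0456), and the median was 0.091. Mfap5 was lowest among knockout hearts in replicate 3 (622, 644 and 516), unlike the sum. Scara5, chosen after its values were seen, had the largest difference of the list, -0.52, with every knockout heart below every wild-type heart (limma adjusted p = 0.131). The part of these cells in the values of Mmp3, Timp1 or Mmp2 was not tested, and in whole heart RNA fewer cells of a type and less RNA per cell cannot be told apart.

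**Figure D3:**
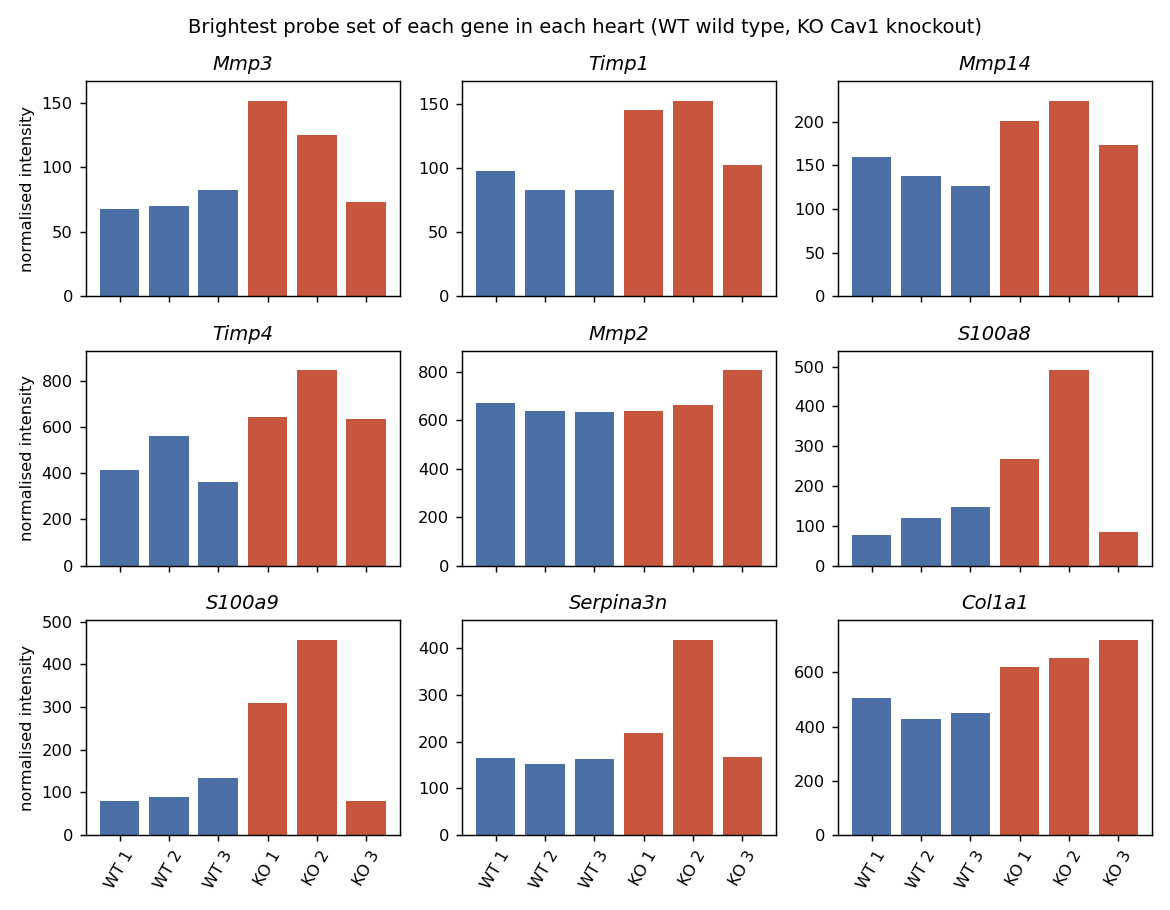
Normalised intensity (y axis, linear, from 0) in each of the 6 hearts for the brightest probe set of 9 genes; blue bars are wild-type (WT 1 to 3) and red bars knockout hearts (KO 1 to 3). Mmp3, Timp1, S100a8, S100a9 and Serpina3n are high in knockout replicates 1 and 2 and lowest among knockout hearts in replicate 3. Mmp2 is highest in replicate 3, and Col1a1 is high in all 3 knockout hearts. The genes drawn are examples from lists chosen with earlier results of these data known. In the neutrophil list of S100a8 and S100a9, Csf3r was also lowest among knockout hearts in replicate 3. The granule genes Camp, Elane, Ltf, Mpo and Ngp, near background, were instead highest among knockout hearts in that replicate. Their log2 fold changes were negative and not tested.

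Markers of other resident cells gave the following counts, to be read against the same 2.97% and 1.05%. Of 10 endothelial markers 5 rose (Pecam1, Tek, Tie1, Cldn5 and Esam) and 0 fell, though Robo4 had a log2 fold change of -0.25 (limma adjusted p = 0.12). Their summed intensity was 4793 to 5006 in wild-type hearts and 5728 to 6696 in knockout hearts. Of 10 macrophage markers 3 rose (C1qa, Mrc1 and Mpeg1), with sums of 6317 to 7214 and 7767 to 8233. Of 8 mesothelial markers 1 rose, Lrrn4, with sums of 632 to 1020 and 1058 to 1235. Of 10 smooth muscle and pericyte markers 1 rose, Higd1b, by 0.37, with sums of 14288 to 14579 and 14925 to 15195. The list was mixed, with a median of 0.049. Tagln had -0.14 with every knockout heart below every wild-type heart (limma adjusted p = 0.171), Myh11 -0.11 and Cnn1 -0.10, and the remaining markers were above 0. Of 10 cardiomyocyte markers 0 passed, also at an unadjusted p of 0.05 (limma), but quantile normalisation can limit differences among genes this bright. The part of any of these cells in the values of Mmp14, Timp1 or Timp4 was not tested.

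The balance of enzyme and inhibitor was read as a difference of log2 values within each heart, centred on its mean over the 6 hearts. Only its change between the groups has a meaning, since probe sets are not on a common scale, and these differences carry no test. Mmp2 against Timp2 was flat, with -0.017, -0.020 and -0.0068 in wild-type hearts, then -0.060, -0.015 and 0.12 in knockout hearts. Mmp9 against Timp1 was 0.19, 0.14 and 0.28 in wild-type hearts and -0.38, -0.32 and 0.095 in knockout hearts, lower in each knockout heart, with the Mmp9 reading itself in the range of background. Mmp3 against Timp1 had group means of -0.0069 and 0.0069, with single hearts between -0.24 and 0.27, so the hearts overlapped. Mmp14 against Timp2 was -0.070, -0.20 and -0.29 in wild-type hearts and 0.26, 0.40 and -0.093 in knockout hearts, with knockout replicate 3 among the wild-type hearts. Mmp2 against Timp4 had group means of 0.28 and -0.28, and the hearts overlapped.

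Matrix synthesis genes stood beside these values as the other arm of matrix metabolism. Taking the brightest probe set of each gene, 16 of 27 tested genes of a list of collagens, matrix proteins and collagen-processing enzymes rose and 0 fell, against 2.97% and 1.05% of all 11486 genes tested this way. The 8 metalloproteinase and TIMP genes gave 0 and 0. The median log2 fold change was 0.37 for the synthesis genes, 0.28 for the 8 genes and -0.014 for all genes. Postn (periostin) rose by 0.81 (SE 0.050, limma adjusted p = 0.000153), Col5a2 by 0.70, Bgn (biglycan) by 0.39 and Col6a3 by 0.46. Collagen genes are known to have been called in these data before the list was drawn up, so its count is no independent evidence. Whether the synthesis genes and the 8 genes differ was not tested.

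Mmp2, an enzyme of the same fibroblasts that make collagen, can be set against Col1a1 within each heart. Col1a1 rose from 460.4 ± 40.0 to 664 ± 51.2 (SD, n = 3 each; log2 fold change 0.51, limma adjusted p = 0.00979). The log2 difference of Mmp2 and Col1a1 was 0.12, 0.28 and 0.21 in wild-type hearts and -0.24, -0.25 and -0.12 in knockout hearts, lower in each knockout heart. With Mmp2 changing little, this mostly restates the rise of Col1a1 and is no separate evidence. The log2 difference of Timp1 and Col1a1 was 0.0053, 0.033 and -0.033 in wild-type hearts and 0.22, 0.21 and -0.44 in knockout hearts. Knockout replicate 3 thus lay apart from the wild-type hearts and from the other knockout hearts.

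**Figure D4:**
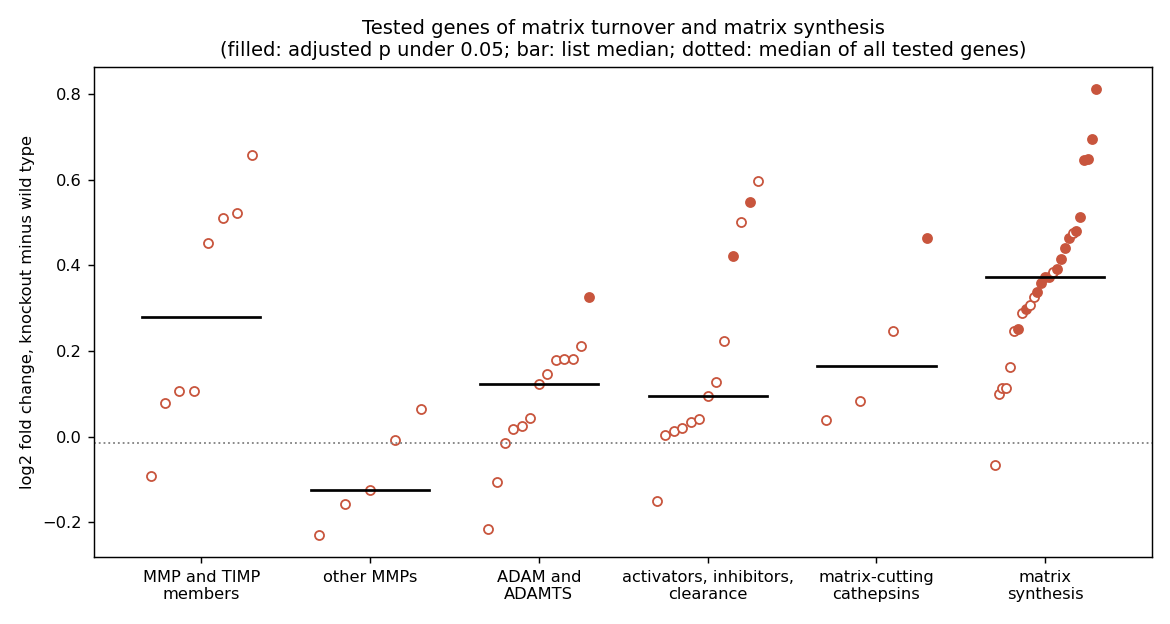
Log2 fold change (y axis, knockout minus wild type) of each tested gene, by its brightest probe set, in the 8 metalloproteinase and TIMP genes and 5 gene lists; filled points have an adjusted p under 0.05, bars are list medians and the dotted line is the median of all 11486 genes. No point of the first 2 lists is filled, while 16 of the 27 synthesis genes are.

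The remaining metalloproteinases were mostly too low to read. Of 18 such genes 14 had a probe set, 9 of these were near background, among them the neutrophil collagenase Mmp8, the macrophage elastase Mmp12 and the collagenase Mmp13, and 0 of the 5 tested passed (limma), with Mmp7 alone at an unadjusted p under 0.05. Their median was -0.13, and the 9 tested genes of other tissues had a median of -0.16 with 0 called. Mmp7 (matrilysin) had a log2 fold change of -0.23 (limma adjusted p = 0.187), Mmp24 -0.16, Mmp17 -0.13 and Mmp23 0.065.

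Among related proteinases and their regulators, 4 genes rose and 0 fell, against 2.97% and 1.05% of all genes. Of 13 tested ADAM and ADAMTS genes, Adam10, the sheddase of Notch and cadherins, rose from 603 ± 44.1 to 759 ± 20.9 (SD, n = 3 each; log2 fold change 0.33, SE 0.060, limma adjusted p = 0.0242). Adam9 had 0.15, Adamts5, an aggrecanase, 0.21 and Adamtsl4 -0.22, all short of the threshold, and the median was 0.12. Adamtsl4 is an ADAMTS-like gene of that list and not itself a proteinase gene. Of 13 tested activators, inhibitors and clearance genes, Cd44, the hyaluronan receptor that can hold metalloproteinases at the cell surface, rose by 0.55 (SE 0.071, limma adjusted p = 0.00538). Plat, tissue plasminogen activator, which starts the plasmin route of metalloproteinase activation, rose by 0.42 (SE 0.078, limma adjusted p = 0.0255). Thbs1 and Serpina3n, a matricellular protein and an acute-phase serine protease inhibitor, had 0.50 and 0.60 and did not pass (limma adjusted p = 0.146 and 0.233), both without overlap of the groups and with knockout replicate 3 the lowest knockout heart. The median of that list was 0.095. Of 4 cathepsins that cut matrix, Ctss, the cathepsin of macrophages, rose by 0.46 (SE 0.071, limma adjusted p = 0.0114), and Ctsk, Ctsl and Ctsb stood at 0.25, 0.083 and 0.040 without passing.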

How the data were processed

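RNA of 6 mouse hearts was measured on 1 Affymetrix array each. Biotin labelling started from 2 ug of total RNA after Trizol extraction and a column step, per the labels' protocols. The authors deposited 1 intensity on a linear scale per probe set and array; the submitters' processing notes list GCOS 1.4 without saying what it did, and the summary method, background correction and scaling are not given in the sources used here. From these intensities the 64 control probe sets were removed. Trimmed means (2% at each end) differed by 8.44% between arrays, over the limit of 5%, so the arrays were quantile normalised, with a pseudocount of 16 before log2. Knockout minus wild type was fitted with limma 3.58.1 in R 4.3.3 (lmFit, eBayes with trend, no covariate), with Benjamini-Hochberg adjustment over the 22519 probe sets in the upper 50% by mean, whose mean log2 values start at 5.92. The limma steps were tested on simulated data.

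Names came from the platform annotation: 34945 probe sets had 1 symbol, 932 several and 9160 none. All 9 symbols are in the RefSeq table of GRCm38.p6, used for names and neighbours. Lists used the brightest probe set of each gene. Of the proteinase and synthesis lists up to 4 genes, those of smallest p, are named with values, and Col1a1 besides. In the cell marker lists this rule was not followed, and some markers of smaller p than those named are left out. The members and lists were chosen with earlier results of these data known. In all, 15 alternatives were tried: 2 scalings, pseudocounts of 1 and 64, 3 filters (the upper 25% left 13 of the 19 probe sets, without Mmp3, Mmp9, Mmp14 and Timp1), no trend, array weights, and each heart left out. The depth of an array is not a count, and their number limits the precision.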

Additional observations from a re-analysis of the deposited data

How the results depend on the processing

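The count of metalloproteinase and TIMP probe sets called lower was 0 under all 15 alternatives. The count called higher, 0 as reported, was 1 with the intensities as deposited and 1 with arrays centred on the median (Mmp14 in both), 2 among the upper 25% of probe sets, which hold 13 of the 19 (both of Timp4), 4 with array weights, and 0 to 4 with 1 heart left out. It was 4 without knockout replicate 3 (Mmp3, Mmp14, Timp1 and Timp4, 1 probe set each), 1 when wild type replicate 1 was left out (Mmp14) and 1 for wild type replicate 2 (Timp4). With pseudocounts of 1 and 64, no filter, the upper 75%, or no trend it stayed 0. Over all probe sets the count of calls, 714, was 411 with no trend, 1171 with array weights and 188 to 745 with 1 heart left out, the lowest being 188 without knockout replicate 1, then 224 (knockout replicate 2), 302 (wild type replicate 3) and 466 (wild type replicate 1). Of those calls 74.4% were higher, 90.9% as deposited and 93.6% centred on the median. The sign turned only at differences near 0. Timp3 turned at 1449334_at, to 0.056 as deposited and 0.080 centred on the median (-0.080 to 0.076 with 1 heart left out), and at 1419088_at, to 0.030 and 0.054 (-0.099 to 0.026). Mmp14 turned at 1440920_at, to 0.0012 centred on the median and 0.0029 with array weights (-0.073 to 0.020). With 1 heart left out Timp2 ran from -0.0024 to 0.086 at 1460287_at, -0.012 to 0.097 at 1454677_at, -0.067 to 0.20 at 1450040_at and -0.011 to 0.066 at 1420924_at. The cause of these changes was not tested. The intensities near background limit Mmp9, the weakest Mmp14 probe set and most other metalloproteinases.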

Other observations

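In the RefSeq table Timp1, Timp3 and Timp4 each lie inside a synapsin gene, Syn1, Syn3 and Syn2 in that order, which encode proteins of synaptic vesicles. For Timp1 and Timp4 the host is listed on the opposite strand. The host genes read low in these hearts. The tested probe set of Syn1 had means of 65.4 ± 7.67 in wild-type hearts and 58.1 ± 1.75 in knockout hearts (SD, n = 3 each; log2 fold change -0.13, limma adjusted p = 0.398), opposite in sign to Timp1. Of 6 Syn2 probe sets 1 was tested, at 47.0 ± 3.10 and 45.5 ± 6.22 (log2 fold change -0.039, limma adjusted p = 0.831), while both Timp4 probe sets were above 0. Syn3 had 2 tested probe sets, at -0.18 and -0.11, neither of which passed. The group means of all tested host probe sets lay under the 90th percentile of the genes of other tissues, 78.9.

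The genes nearest to a member in pattern were to be named for members called, and none was. Chosen after the values were seen, the nearest probe sets to the 4 members with the largest differences, by the root mean square difference of centred log2 values over the 6 hearts, are given as a description. Nearest to Timp1 were Col8a1, a short-chain collagen, at 0.068, Grk5 at 0.080 and Mmp14 itself at 0.087. Of these only Grk5 rose, by 0.44 (limma adjusted p = 0.0407). Nearest to Mmp14 were Tmem45a at 0.041, Lbp at 0.048 and Sh3bgrl2 at 0.051, none of which passed. Nearest to Timp4 was Stk26 at 0.072, with a log2 fold change of 0.70 (limma adjusted p = 0.0337). A probe set of the heat shock gene Hspa1b followed at 0.077, with a log2 fold change of 0.68 (limma adjusted p = 0.0409). Another probe set of Hspa1b came next at 0.085, with 0.56, and did not pass (limma adjusted p = 0.0795). Nearest to Mmp3 were Acta1, skeletal alpha-actin, at 0.073, Hsp90aa1 at 0.094 and Myot at 0.10, none of which passed.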
